A study of Mus musculus with 12 samples.

Results

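Noncoding genes that carry small nucleolar RNAs (snoRNAs) in their introns, 7 of the 20529 in the deposited table, were followed through 4 groups of mouse embryonic stem cells. They were Gas5, Snhg1, Snhg3, Snhg5, Snhg6, Snhg8 and Snhg12, chosen by name as host genes whose spliced transcripts are known substrates of nonsense-mediated decay. These genes were chosen with earlier results of these data known. Gene symbols in the table identified 6 of them, and Snhg1, whose symbol cell was blank, was found by its Ensembl identifier. All 7 passed the filter on low counts, and none lies on chromosome 8, whose genes were higher as a group in the Trim71-/- libraries.

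All cells were 129S6/SvEvTac embryonic stem cells with a GFP_5xT71BS reporter and a stable FLAG-Cas9::T2A::Blasticidin construct, kept on gelatin in serum and LIF. The groups were control cells with Cas9 only (Cas9 control), Trim71-/- cells with Cas9 only (Cas9 Trim71-/-), control cells overexpressing Tnrc6a (Tnrc6a control) and Trim71-/- cells overexpressing Tnrc6a (Tnrc6a Trim71-/-), with 3 libraries each. Trim71 is an RNA-binding TRIM-NHL protein that represses mRNAs, and Tnrc6a (GW182) links Argonaute to the deadenylases that silence mRNAs. By its title, the series asks whether separate silencing routes meet on Tnrc6 proteins. Libraries are wells, and the labels name no independent clones, so the tests measure spread between wells, and genotype cannot be told apart from the cell line that carries it.

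Input lines of 9 libraries name other cells than their titles do. Those of the Cas9 Trim71-/- libraries name HA-AVI-Tnrc6a cells, those of the Tnrc6a control libraries HA-AVI-Tnrc6a cells that are Ago2-/-, and those of the Tnrc6a Trim71-/- libraries HA-AVI-Tnrc6a cells that are Upf1-/-. Every comparison made here, including those of Trim71 and the interaction, uses some of these libraries. Both knockouts would bear on the Tnrc6a comparisons and on the Trim71 comparison with Tnrc6a, and Upf1-/- on decay substrates. Whether the lines or the titles are right was not tested. Groups follow the titles and the overexpression tag. Upf1 RNA in the Tnrc6a Trim71-/- libraries was 232, 229 and 228 CPM (counts scaled to a common library size by trimmed mean of M values), above the 156 to 185 CPM of both control groups, but an RNA level does not identify a genotype. Tnrc6a RNA followed the titles, with 131 to 152 CPM in the 6 Cas9 libraries and 3197 to 3704 CPM in the 6 Tnrc6a libraries. Trim71 RNA was still present in the Trim71-/- libraries. It stood at 290, 311 and 317 CPM in Cas9 control and at 264, 270 and 291 CPM in Cas9 Trim71-/-, which overlapped (log2 -0.15, SE 0.04, edgeR adjusted p = 0.00282). With Tnrc6a it stood at 254, 261 and 277 CPM in control and 237, 233 and 251 CPM in Trim71-/- cells (-0.14, SE 0.04, edgeR adjusted p = 0.00758). Gene-level RNA therefore does not check the knockout label, and the labels used here do not say which part of the gene was altered. Library totals ran from 20758151 to 31552915 counts, and the members drew from 394 (Snhg3) to 10422 (Gas5) counts per library. Summed levels of 8 stem cell markers were 5621 to 5684 CPM in Cas9 control, 6535 to 6620 in Cas9 Trim71-/-, 3314 to 3351 in Tnrc6a control and 4861 to 4957 in Tnrc6a Trim71-/-. Primitive endoderm markers (8 genes) summed to 81.5 to 90.1, 11.7 to 13.4, 192 to 198 and 27.0 to 30.8 CPM in the same order, and 8 genes of the 2-cell-like state to 19.8 to 22.5, 1.48 to 2.31, 482 to 497 and 176 to 188 CPM. Trophoblast markers (7 of 8 listed in the table, Elf5 not listed) summed to 29.4 to 32.1, 31.4 to 36.2, 219 to 255 and 121 to 125 CPM. The sum hides opposite changes of these 7 genes between genotypes. In Trim71-/- against control cells, edgeR called 1 higher and 3 lower with Cas9 (median log2 fold change -0.33). With Tnrc6a it called 1 higher and 6 lower. Of 6 neural markers 5 were listed (Neurog2 was not), and 2 of the 5 lie on chromosome 8. The sums of the 5 were 137 to 139, 160 to 175, 149 to 152 and 193 to 199 CPM in the same order. These sums were higher in each Trim71-/- group than in its control without overlap, but the 5 genes did not all rise. In Trim71-/- against control cells, edgeR called 2 higher and 2 lower with Cas9 and 2 higher and 1 lower with Tnrc6a. Fibroblast markers summed to 7.44 to 17.4 CPM over all libraries, and Col3a1, Postn, Lum and Dcn were not listed. The part of these cell states in the results on the host genes was not tested.

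SnoRNAs guide the chemical modification or the cleavage of ribosomal RNA, and in mammals most are cut out of introns after splicing. The exons of the noncoding hosts then leave the nucleus as short-lived RNAs. Many are described as beginning with a run of pyrimidines, the 5′ terminal oligopyrimidine (TOP) tract known from ribosomal protein mRNAs, and their short reading frames end well before the last exon junction. A ribosome that stops there leaves exon junction complexes on the RNA, which recruit UPF1 and start decay. Blocking translation or removing UPF1 therefore raises these RNAs, and they are often read as sensors of the pathway.

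The bases around the start sites are shown because a TOP tract, where a gene has one, lies at the first bases of the RNA. The windows run from 10 bases before to 20 bases after the first base of each RefSeq transcript start (GRCm38.p6), read on the gene's own strand, with the longest run of C and T in capitals. RefSeq entries matched 6 members, Gas5 with 2 starts, and Snhg6 had no entry in the table used.
Gas5, first start (chr1:161034591-161034620, plus strand): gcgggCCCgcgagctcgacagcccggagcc
Gas5, second start (chr1:161035156-161035185, plus strand): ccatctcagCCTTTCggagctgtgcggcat
Snhg1 (chr19:8723477-8723506, plus strand): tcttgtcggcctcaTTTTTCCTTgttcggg
Snhg3 (chr4:132353667-132353696, minus strand): gaccacgcctgaCTTCCgggcgttacttaa
Snhg5 (chr9:88522878-88522907, minus strand): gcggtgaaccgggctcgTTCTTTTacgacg
Snhg8 (chr3:123508317-123508346, minus strand): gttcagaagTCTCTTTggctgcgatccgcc
Snhg12 (chr4:132308668-132308697, plus strand): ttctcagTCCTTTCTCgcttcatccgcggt
Snhg1 and Snhg12 had runs of 9 pyrimidines, a length that 7.11% of all 32851 RefSeq start windows reach. The runs of Snhg5 and Snhg8 had 7 (17.9% of windows), that of the second Gas5 start 6 (28.7%), that of Snhg3 5 (46.4%) and that of the first Gas5 start 3 (88.3%). The runs of the second Gas5 start, Snhg8 and Snhg12 cover the annotated first base, while those of Snhg1, Snhg3 and Snhg5 begin a few bases inside the transcript. In the promoter window of 250 bases before to 50 after the start, read on both strands, the TATA motif TATAAA occurred in 4 of the 7 member windows (13.6% of all), those of Snhg1, Snhg3, Snhg5 and Snhg8. The E-box CACGTG occurred in 0 of 7 (7.15% of all) and the letters CTTTCC in 2 of 7 (26.6% of all). A match is a description of these letters only.

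The annotated transcripts carried the feature that marks decay substrates. In GENCODE M21, 61 of 71 spliced transcripts of the 7 genes (85.9%) had a junction more than 50 bases after the stop of the first frame. That frame opens at the first ATG with at least 2 codons before an in-frame stop. Among 2288 spliced transcripts of 1061 other noncoding genes in the table the share was 72.4%, so the feature is common and does not set the members apart by itself. Gas5 had it in 24 of 25 transcripts, Snhg1 in 15 of 18, Snhg12 in 9 of 10, Snhg5 in 5 of 6, Snhg6 in 4 of 5 and Snhg8 in 2 of 2. Snhg3 had it in 2 of 5 only. First frames were short, with a median of 23 codons and at most 54 over all members, and Gas5 had up to 7 junctions past such a stop. The median in the other noncoding genes was 20 codons, so short frames do not set the members apart either. Most annotated transcripts of Gas5 and Snhg1 are of the retained-intron type.

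By the deposited lengths, in the Cas9 control cells Gas5 was the most abundant member per length, at 74.3 ± 3.94 RPKM (reads per length of gene and library size, SD, n = 3). Snhg6 followed with 44.7 ± 0.835 RPKM, then Snhg1 (35.6 ± 1.54) and Snhg3 (34.5 ± 2.35), whose libraries overlapped. Snhg5 (27.8 ± 0.932), Snhg8 (26.2 ± 1.15) and Snhg12 (21.3 ± 0.173) were lowest, with no overlap between neighbours in that order. Gas5 held rank 1, Snhg6 rank 2, Snhg1 rank 3 and Snhg12 rank 7 in all 4 groups, though Snhg6 and Snhg1 overlapped in the Tnrc6a control group (33.7 ± 2.02 and 33.3 ± 1.55 RPKM). The middle of the order moved. Snhg3 held rank 4 in Cas9 control and rank 6 in both Trim71-/- groups. In the Tnrc6a Trim71-/- group its 16.3 ± 1.49 RPKM overlapped the 15.3 ± 1.03 of Snhg12. Snhg8 held rank 6 in Cas9 control and rank 4 in the other groups, at 40.5 ± 2.99 RPKM in Cas9 Trim71-/- and 32.5 ± 0.855 in Tnrc6a Trim71-/-. The RPKM of Snhg5 is uncertain as a level per length, because its deposited length of 3634 bases exceeds the 1730 exonic bases, and the whole span of 1880 bases, of the M21 gene. Rescaling the deposited RPKM of Snhg5 to the M21 length changes the order. Snhg5 then stands at 58.5 ± 1.96 RPKM in Cas9 control and holds rank 2 there, in Cas9 Trim71-/- and in Tnrc6a control. In Tnrc6a Trim71-/- it holds rank 3. Snhg6 then holds rank 3 in the first 3 of these groups, and Snhg1 rank 4 in all. The Snhg5 counts were not remade for the M21 exons. They, and the fold changes of Snhg5, may hold reads from outside the M21 gene. For the other 6 members the deposited length equals the M21 exon union. For Snhg1, Snhg8 and Snhg12 that union is the whole gene, introns included. It covers 3760 of the 4118 bases of Gas5, and for Snhg5 the M21 union covers 1730 of 1880 bases. The counts of all these genes can therefore hold unspliced RNA and snoRNA reads.

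Summed over the 7 genes, the hosts stood at 645 ± 22.9 CPM in Cas9 control, 762 ± 39.4 in Cas9 Trim71-/-, 499 ± 24.6 in Tnrc6a control and 598 ± 16.0 in Tnrc6a Trim71-/- (SD, n = 3). Gas5 made up 43.3% to 46.4% of the sum in the group means. The share of Snhg3 went from 5.28% ± 0.403 in Cas9 control to 4.22% ± 0.225, 3.95% ± 0.192 and 2.69% ± 0.249 in the other groups, in the order just given. In bulk RNA, fewer cells that make an RNA and less RNA per cell cannot be told apart.

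**Figure D1:**
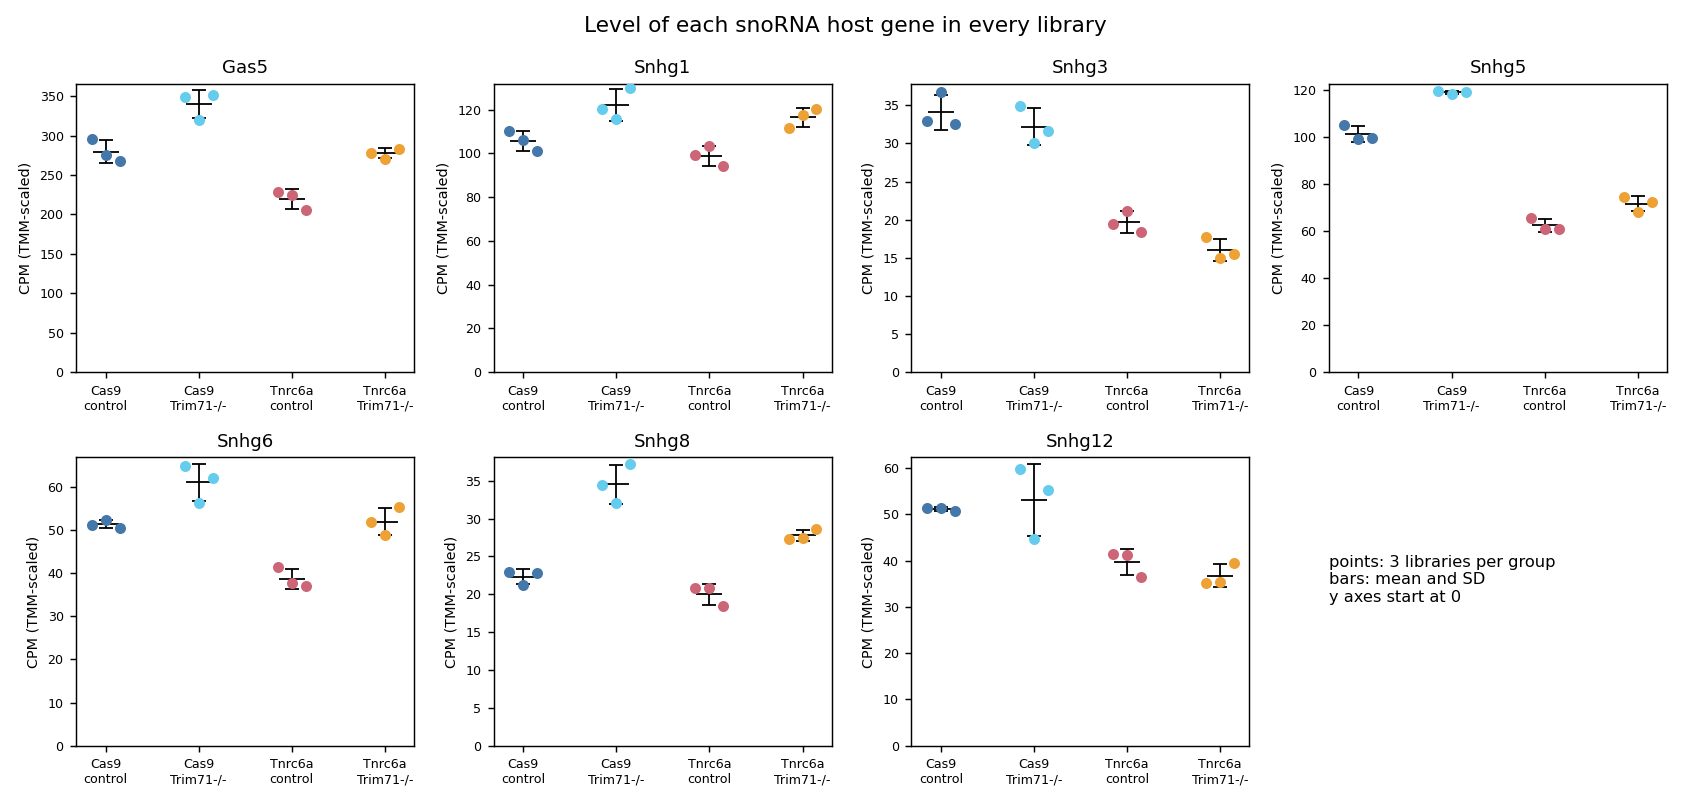
CPM (scaled by trimmed mean of M values) of each host gene in the 12 libraries, with points for libraries and bars for mean and SD of the 3 per group, and with all y axes starting at 0. Gas5, Snhg1, Snhg5, Snhg6 and Snhg8 sit higher in each Trim71-/- group than in its control, while Snhg3 is lower with Tnrc6a, at 19.7 against 34.1 CPM in control and 16.1 against 32.2 CPM in Trim71-/- cells.

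The first question was how loss of Trim71 changed the hosts in cells with Cas9 only. Of the 7 members 5 rose, namely Gas5, Snhg1, Snhg5, Snhg6 and Snhg8, and 0 fell, against 17.1% of all 20486 tested genes called higher and 19.1% called lower (edgeR quasi-likelihood test, adjusted p under 0.05). No member fell at an unadjusted p under 0.05, and limma-voom and DESeq2 also called 5 higher and 0 lower. The rises were small except for Snhg8, with a median log2 fold change of 0.23 over the 7 against -0.01 over all tested genes. The 5 risers were also those whose 3 Trim71-/- libraries all lay above the 3 control libraries, a separation seen upward in 20.7% of all tested genes.

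With Tnrc6a overexpressed, the same comparison gave 5 members higher and 1 lower, against 20.0% of all tested genes called higher and 19.0% lower. Gas5, Snhg1, Snhg5, Snhg6 and Snhg8 rose here too, and Snhg3 fell. The median log2 fold change of the members was 0.23, against 0.00 over all tested genes. In all 6 the libraries of the genotypes did not overlap, as in 25.5% of tested genes upward and 23.9% downward. Gas5 and Snhg6 lie on chromosome 1, of whose 1245 tested genes 26.9% were called higher here, with a median log2 fold change of 0.07. Among Cas9 libraries that share was 16.5% and the median 0.01.

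Tnrc6a overexpression went with lower hosts. In control cells 6 of 7 fell and 0 rose (33.1% of tested genes lower, 30.4% higher), and in Trim71-/- cells 6 of 7 fell and 0 rose (30.9% lower, 32.0% higher). Gas5, Snhg3, Snhg5, Snhg6, Snhg8 and Snhg12 fell in both, and no member had a positive value in either. In control cells limma-voom also called 6 lower and DESeq2 5, since the Snhg8 fall lost its call in 15 of 22 alternative analyses. The median log2 fold change of the members was -0.37 in control and -0.31 in Trim71-/- cells, against -0.02 and 0.02 over all tested genes. The libraries of the 6 genes that fell did not overlap between Cas9 and Tnrc6a, a separation seen downward in 34.8% of all tested genes in control and 32.3% in Trim71-/- cells. These comparisons share groups with the Trim71 comparisons, so the 4 are not independent of each other.

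Whether the Tnrc6a difference depended on Trim71 was tested by the interaction. No member passed (edgeR, 6.93% of all tested genes called), and DESeq2 and limma-voom called 0 too. At an unadjusted p under 0.05 stood Snhg6 (interaction 0.17 on the log2 scale, SE 0.08, edgeR adjusted p = 0.218) and Snhg3 (-0.22, SE 0.11, edgeR adjusted p = 0.251). The values of the other 5 lay between -0.17 (SE 0.11) for Snhg12 and 0.06 (SE 0.06) for Gas5. Without Cas9 Trim71-/- replicate 2, the library in which Snhg12 was lowest for its group, Snhg12 was called (-0.29, edgeR adjusted p = 0.0349).

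**Figure D2:**
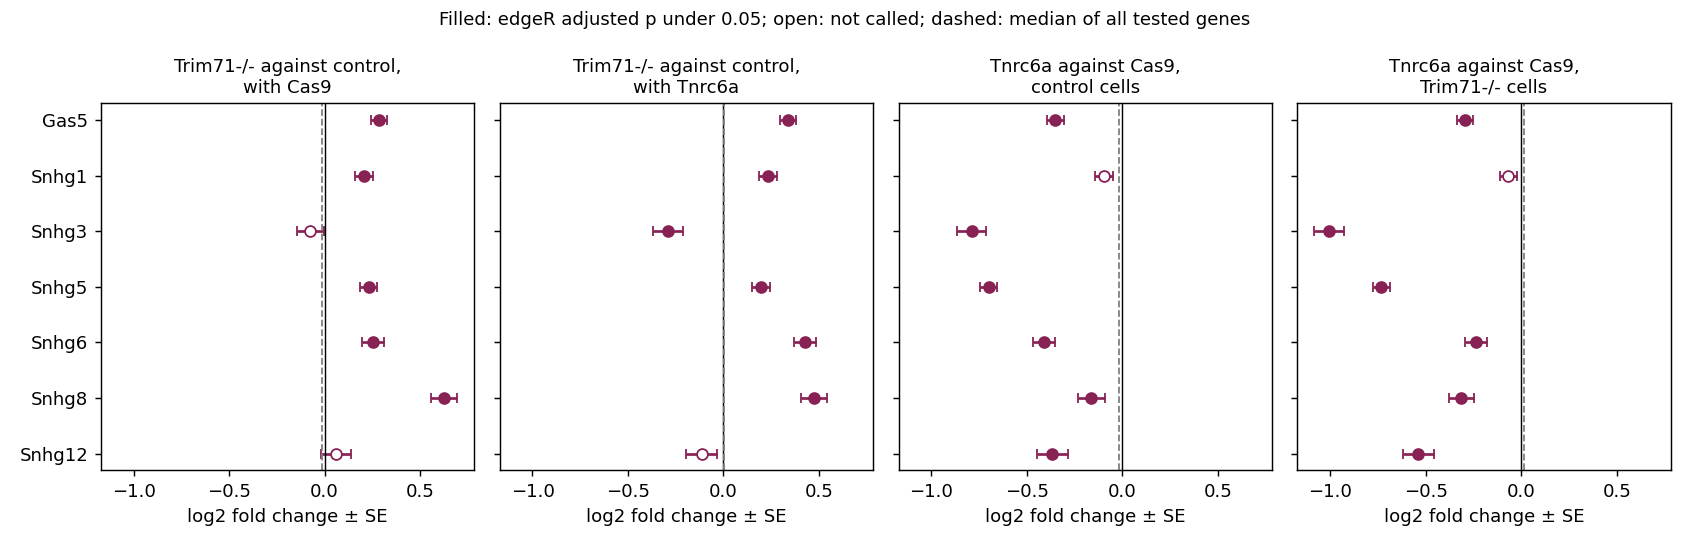
Log2 fold change with SE (x axis) of each host gene in the 4 comparisons, filled where the edgeR adjusted p was under 0.05, with the median of all tested genes as a dashed line. Snhg8 reaches 0.62 in the first panel and Snhg3 -1.01 in the last, and no filled point lies right of 0 in either Tnrc6a panel.

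Gas5 (ENSMUSG00000053332, chr1:161034422-161038539, plus strand), the growth arrest-specific transcript, carries box C/D snoRNAs in its introns. Its Cas9 control libraries stood at 296, 275 and 267 CPM and its Cas9 Trim71-/- libraries at 350, 320 and 352 CPM. With Tnrc6a it stood at 228, 225 and 205 CPM in control and 278, 271 and 284 CPM in Trim71-/- cells. The Tnrc6a Trim71-/- libraries lay within the range of the Cas9 control libraries, and each genotype was lower with Tnrc6a than without. Gas5 was 1.22-fold higher in Cas9 Trim71-/- than in Cas9 control cells (log2 0.28, SE 0.04, edgeR adjusted p = 8.26e-07). Under Tnrc6a it was 1.27-fold higher without Trim71 (0.34, SE 0.04, edgeR adjusted p = 1.90e-08). Gas5 was 1.27-fold lower with Tnrc6a in control cells (-0.35, SE 0.04, edgeR adjusted p = 3.46e-09) and 1.23-fold in Trim71-/- cells (-0.30, SE 0.04, edgeR adjusted p = 1.26e-07). Zbtb37, a zinc finger gene that overlaps Gas5 on the other strand without sharing exons, was called in none of the 4 comparisons (log2 values from -0.10 to -0.05).

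Snhg1 (ENSMUSG00000108414, chr19:8723475-8726443, plus strand) is the classic snoRNA host, holding Snord22 and a row of further box C/D snoRNAs. It stood at 110, 106 and 101 CPM in Cas9 control and at 120, 116 and 130 in Cas9 Trim71-/-. The Tnrc6a libraries gave 99.1, 104 and 94.3 CPM in control and 111, 118 and 120 in Trim71-/- cells. Here the genotypes separated, and the Tnrc6a libraries overlapped the Cas9 libraries. Snhg1 rose without Trim71 in both backgrounds, with log2 fold changes of 0.21 in Cas9 cells (SE 0.05, edgeR adjusted p = 0.000417) and 0.23 in Tnrc6a cells (SE 0.05, edgeR adjusted p = 5.76e-05). Its Tnrc6a differences were -0.10 in control (SE 0.05, edgeR adjusted p = 0.069) and -0.07 in Trim71-/- cells (SE 0.05, edgeR adjusted p = 0.2). The first of these passed without Cas9 control replicate 3 (edgeR adjusted p = 0.0305) or without Cas9 Trim71-/- replicate 3 (edgeR adjusted p = 0.0406). Slc3a2, an amino acid transporter subunit, starts 106 bases away on the other strand. It rose without Trim71 as well, by 0.25 with Cas9 and 0.10 with Tnrc6a on the log2 scale. Slc3a2 was called lower with Tnrc6a in Trim71-/- cells, at -0.23 (edgeR adjusted p = 4.34e-07). In control cells it stood at -0.08 and just passed (edgeR adjusted p = 0.0465), while Snhg1, at -0.10, just did not.

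Snhg5 (ENSMUSG00000097195, chr9:88521050-88522929, minus strand) carries the box C/D snoRNAs Snord50a and Snord50b. Its libraries were among the tightest, with 105, 99.1 and 99.6 CPM in Cas9 control and 119, 118 and 119 in Cas9 Trim71-/-. With Tnrc6a they fell to 65.7, 60.7 and 60.8 CPM in control and 74.5, 68.0 and 72.1 in Trim71-/- cells. No 2 groups overlapped. Snhg5 fell with Tnrc6a 1.62-fold in control cells (log2 -0.70, SE 0.05, edgeR adjusted p = 2.27e-17) and 1.66-fold in Trim71-/- cells (-0.73, SE 0.04, edgeR adjusted p = 3.38e-18). It rose without Trim71 in Cas9 cells (0.23, SE 0.04, edgeR adjusted p = 4.24e-05) and in Tnrc6a cells (0.20, SE 0.05, edgeR adjusted p = 0.000564).

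Snhg6 (ENSMUSG00000098234, chr1:9941959-9944118, minus strand) holds the box C/D snoRNA Snord87. Cas9 control libraries gave 51.2, 52.3 and 50.4 CPM and Cas9 Trim71-/- libraries 64.7, 56.3 and 62.0. Tnrc6a control libraries gave 41.3, 37.6 and 37.0 CPM and Tnrc6a Trim71-/- libraries 51.7, 48.8 and 55.2, which overlapped Cas9 control. Trim71-/- cells had more Snhg6 than controls among Cas9 libraries (log2 0.25, SE 0.06, edgeR adjusted p = 0.000334) and among Tnrc6a libraries (0.43, SE 0.06, edgeR adjusted p = 4.46e-08). With Tnrc6a its log2 fold change was -0.41 in control (SE 0.06, edgeR adjusted p = 4.98e-08) and -0.24 in Trim71-/- cells (SE 0.06, edgeR adjusted p = 0.000293). Mcmdc2, a meiosis gene whose exons overlap those of Snhg6 on the other strand, had group means of 0.532 and 1.18 CPM in control and Trim71-/- cells with Cas9 and of 0.442 and 0.948 CPM with Tnrc6a. It rose without Trim71 with Cas9 (log2 1.16, SE 0.36, edgeR adjusted p = 0.00994). Its rise among Tnrc6a libraries was 1.10 (SE 0.37, edgeR adjusted p = 0.0151). The sources used here do not say whether reads were counted by strand, so reads of the pair may be shared.

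Snhg8 (ENSMUSG00000104960, chr3:123507552-123508404, minus strand), the shortest of the genes, hosts the H/ACA snoRNA Snora24. It showed the largest rise of the members, from 22.9, 21.2 and 22.9 CPM in Cas9 control to 34.4, 32.1 and 37.2 in Cas9 Trim71-/-. With Tnrc6a it stood at 20.8, 20.8 and 18.4 CPM in control and 27.3, 27.5 and 28.6 in Trim71-/- cells, again apart. The rise in Cas9 cells was 1.54-fold (log2 0.62, SE 0.07, edgeR adjusted p = 4.73e-10). In Tnrc6a cells it was 1.39-fold (0.47, SE 0.07, edgeR adjusted p = 2.79e-07). The 994 tested genes of chromosome 3 had a median of -0.02 in both comparisons. Snhg8 fell with Tnrc6a in Trim71-/- cells (-0.31, SE 0.07, edgeR adjusted p = 7.75e-05). In control cells the difference was small (-0.16, SE 0.07, edgeR adjusted p = 0.045), with adjusted p from 0.0304 to 0.244 over the 22 alternatives. The alternatives that lost the call include the leaving out of any 1 Tnrc6a control library.

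Snhg12 (ENSMUSG00000086290, chr4:132308623-132311024, plus strand) holds Snora16a, Snora44, Snora61 and Snord99. Its 51.4, 51.4 and 50.7 CPM in Cas9 control lay inside the spread of Cas9 Trim71-/-, where it stood at 59.7, 44.6 and 55.2 CPM. The Tnrc6a libraries were lower and overlapped between genotypes, with 41.4, 41.2 and 36.5 CPM in control and 35.2, 35.4 and 39.5 in Trim71-/- cells. Its Trim71-/- difference was 0.06 among Cas9 libraries (log2, SE 0.08, edgeR adjusted p = 0.606) and -0.11 among Tnrc6a libraries (SE 0.08, edgeR adjusted p = 0.3), neither of which passed. The first rested on single libraries, with 0.17 (edgeR adjusted p = 0.0314) without Cas9 Trim71-/- replicate 2 and -0.04 without replicate 1. Snhg12 fell with Tnrc6a, with log2 fold changes of -0.37 in control (SE 0.08, edgeR adjusted p = 0.000465) and -0.54 in Trim71-/- cells (SE 0.08, edgeR adjusted p = 6.15e-06).

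Snhg3 (ENSMUSG00000085241, chr4:132348014-132353686, minus strand) carries Snora73a and Snora73b, the U17 H/ACA RNAs, which act in cleavage of the ribosomal RNA precursor rather than in its modification. It had the largest fall of the members with Tnrc6a in both genotypes. Cas9 control libraries stood at 33.0, 36.7 and 32.5 CPM and Cas9 Trim71-/- libraries at 34.9, 30.1 and 31.6, which overlapped. With Tnrc6a they stood at 19.4, 21.2 and 18.4 CPM in control and 17.7, 14.9 and 15.5 in Trim71-/- cells, all below every Cas9 library. The fall was 1.73-fold in control (log2 -0.79, SE 0.07, edgeR adjusted p = 1.46e-12) and 2.01-fold in Trim71-/- cells (-1.01, SE 0.08, edgeR adjusted p = 3.01e-15). Its Trim71-/- difference was -0.07 among Cas9 libraries (SE 0.07, edgeR adjusted p = 0.45, not called), and Snhg3 fell among Tnrc6a libraries (-0.29, SE 0.08, edgeR adjusted p = 0.00272).

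Rcc1, which encodes the exchange factor of the Ran GTPase, starts 81 bases from Snhg3 on the same strand and shares exons with it, so how reads of the shared exons were assigned is uncertain. Rcc1 stood at 183 ± 0.836 CPM in Cas9 control and 156 ± 3.44 in Tnrc6a control (SD, n = 3). In Trim71-/- cells it stood at 171 ± 6.01 with Cas9 and 136 ± 3.23 with Tnrc6a. Rcc1 fell with Tnrc6a, with log2 fold changes of -0.23 in control (SE 0.04, edgeR adjusted p = 1.29e-06) and -0.33 in Trim71-/- cells (SE 0.04, edgeR adjusted p = 7.15e-10), against -0.79 and -1.01 for Snhg3. Snhg3 counts per 100 Rcc1 counts were 18.6 ± 1.26 in Cas9 control and 12.6 ± 1.14 in Tnrc6a control. They were 18.9 ± 1.39 and 11.8 ± 0.887 in the Trim71-/- groups without and with Tnrc6a. The ratio was lower in each of the 3 Tnrc6a libraries than in each Cas9 library of the same genotype, and the exact two-sided permutation p was 0.1 both times, the smallest that 3 against 3 allows (4 comparisons of this ratio were made).

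The 2 snoRNAs of Snhg3 lie within the gene, and no annotated Snhg3 exon covers either as a whole, unlike most snoRNAs of the other members. Partial overlap and the exons of Rcc1 were not checked, so some of their reads may still be exon reads. The GENCODE M21 sequences of the 2 snoRNAs, each of 205 bases, are identical at 198 positions, and the 7 that differ are in capitals. Reads of either copy can therefore be counted for the other.
Snora73a: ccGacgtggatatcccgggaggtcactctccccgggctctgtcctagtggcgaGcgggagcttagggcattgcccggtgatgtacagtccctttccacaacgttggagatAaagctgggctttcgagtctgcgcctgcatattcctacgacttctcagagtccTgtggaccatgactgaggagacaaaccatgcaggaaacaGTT
Snora73b: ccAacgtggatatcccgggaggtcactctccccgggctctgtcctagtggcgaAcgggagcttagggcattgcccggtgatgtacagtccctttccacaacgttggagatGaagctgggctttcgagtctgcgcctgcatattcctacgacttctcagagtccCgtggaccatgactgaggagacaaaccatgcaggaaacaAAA
Summed over both copies, the Cas9 control libraries held 8.64, 8.04 and 8.39 CPM and the Tnrc6a control libraries 5.53, 5.72 and 4.11. In Trim71-/- cells the sum was 9.66, 6.82 and 8.44 CPM with Cas9 and 4.22, 3.68 and 4.18 with Tnrc6a. Both Tnrc6a groups lay below the Cas9 groups without overlap. Snora73b fell with Tnrc6a in control (log2 -0.93, SE 0.15, edgeR adjusted p = 9.50e-07) and in Trim71-/- cells (-1.06, SE 0.16, edgeR adjusted p = 1.22e-07). Snora73a fell in Trim71-/- cells (-1.04, SE 0.22, edgeR adjusted p = 7.74e-05) and stood at -0.40 in control cells, not called. Per 100 Snhg3 counts the pair gave 24.6 ± 2.37, 25.7 ± 2.66, 25.9 ± 3.19 and 25.1 ± 1.59 counts in Cas9 control, Cas9 Trim71-/-, Tnrc6a control and Tnrc6a Trim71-/- (exact two-sided permutation p from 0.5 to 0.9 over 4 comparisons). Reads of mature snoRNAs and of unspliced host RNA cannot be told apart in these counts.

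**Figure D3:**
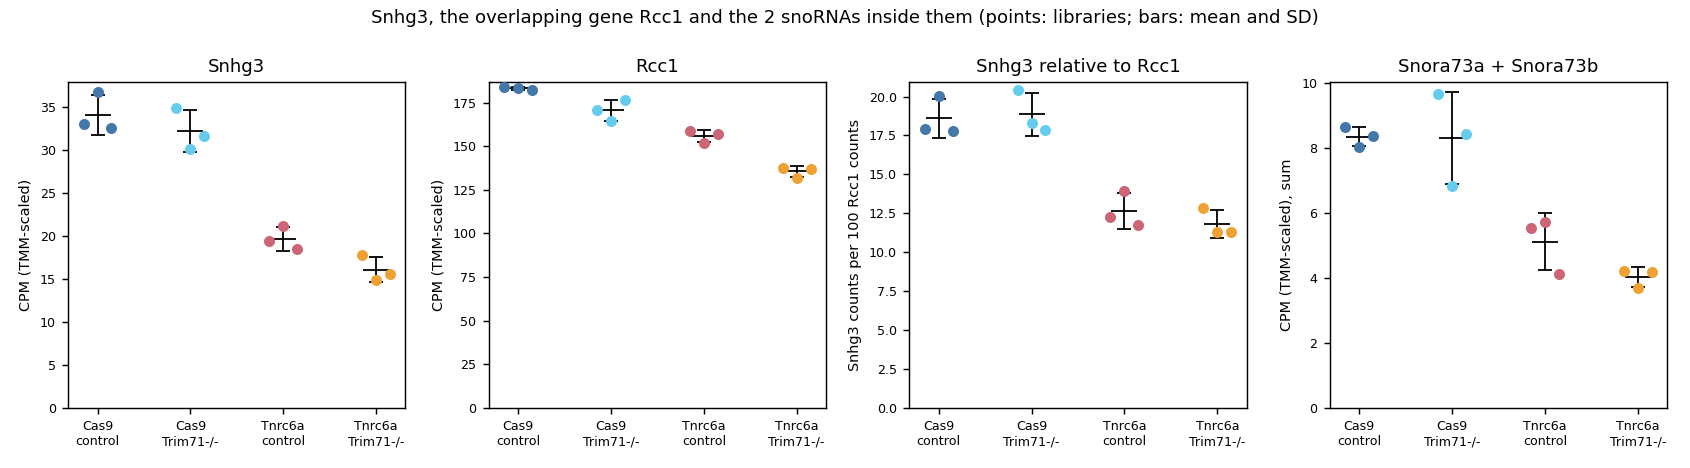
Snhg3, Rcc1, their count ratio and the summed Snora73a and Snora73b in the 12 libraries (CPM, or Snhg3 counts per 100 Rcc1 counts), with points for libraries and bars for mean and SD, and y axes from 0. Snhg3 and its snoRNAs are both lower in the 6 Tnrc6a libraries, and the ratio to Rcc1 goes from 18.6 to 12.6 in control cells.

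Across all 7 hosts, M21 annotates 29 snoRNA genes, of which 27 were listed and 25 were counted once (second rows of Snord80 and Snora16a at nearly the same place were left out). All but Snora73a, Snora73b and Snord87 lie inside an exon of some annotated host transcript, so their reads may be the host's. In Trim71-/- against control, 1 was higher and 0 lower with Cas9, and 1 was higher and 3 lower with Tnrc6a. With Tnrc6a, 0 were higher and 3 lower in control cells, and 0 higher and 10 lower in Trim71-/- cells. Where 0 were called in a direction, 0 passed there at an unadjusted p under 0.05, and DESeq2 and limma-voom also called 0. The medians were 0.05, 0.00, -0.29 and -0.39 on the log2 scale in that order. Among 93 snoRNA rows outside the members, 1 was higher and 1 lower in each Trim71 comparison, 3 higher and 9 lower with Tnrc6a in control cells and 4 higher and 12 lower with Tnrc6a in Trim71-/- cells (medians -0.04, -0.08, -0.24 and -0.28).

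Of the 4 snoRNAs of Snhg12, 3 fell with Tnrc6a in Trim71-/- cells. In Tnrc6a Trim71-/- against Cas9 Trim71-/- cells Snord99 fell from a mean of 1.02 to 0.386 CPM (log2 -1.40, SE 0.35, edgeR adjusted p = 0.000552), Snora61 from 3.09 to 1.78 CPM (-0.81, SE 0.20) and Snora44 from 0.608 to 0.285 CPM (-1.09, SE 0.44, edgeR adjusted p = 0.0299, in DESeq2 0.0514). Snora16a stood at -1.20 (SE 0.55, edgeR adjusted p = 0.0566) and was not called. Snord99 and Snora44 were also lower in Tnrc6a Trim71-/- than in Tnrc6a control cells (-1.02, SE 0.35, and -1.28, SE 0.43), while Snora61 and Snora16a were not called there (edgeR adjusted p = 0.463 and 0.133). None of the 4 passed the interaction (edgeR adjusted p from 0.064 for Snord99 to 0.556 for Snora16a). In Tnrc6a Trim71-/- against Tnrc6a control cells Snhg12 itself was at -0.11 and not called. For Gas5, Snord47 fell with Tnrc6a in control (-0.84, SE 0.21) and in Trim71-/- cells (-0.54, SE 0.20), and Snord78 rose without Trim71 with Cas9 (0.53, SE 0.21, edgeR adjusted p = 0.0457), a call lost in DESeq2 (adjusted p = 0.087) and in limma-voom (0.0546). Snora24 of Snhg8 was not called higher where its host rose, at 0.679 ± 0.289 CPM in Cas9 control and 0.542 ± 0.00929 in Cas9 Trim71-/- (SD, n = 3).

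Lists of related genes place the members among their kind. Of 13 other noncoding snoRNA hosts tested, 4 were higher and 1 lower without Trim71 with Cas9, and 3 higher (1 in DESeq2) and 2 lower with Tnrc6a. Zfas1, the host of Snord12-family RNAs, rose in both (0.23, SE 0.05, and 0.25, SE 0.05), and Snhg14, the long imprinted host, fell in both (-0.46, SE 0.07, and -0.34, SE 0.08). Dancr fell among Tnrc6a libraries (-0.43, SE 0.11). With Tnrc6a, 8 of the 13 were lower and 1 higher in either genotype, with Snhg11 higher (0.88, SE 0.08, in control) and Snhg14 (-0.81, SE 0.07), Snhg4 (-0.57, SE 0.08) and Snhg16 (-0.55, SE 0.07) lower. The medians of this list were 0.18, 0.03, -0.27 and -0.33 in the order Trim71 with Cas9, Trim71 with Tnrc6a, Tnrc6a in control and Tnrc6a in Trim71-/- cells.

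Protein-coding hosts, whose spliced exons encode proteins such as ribosomal proteins, mostly fell with Tnrc6a. Of 41 tested, 37 were lower and 2 higher in control cells and 36 lower and 2 higher in Trim71-/- cells (medians -0.43 and -0.35). Rpl23a (-0.58, SE 0.04), Rpl3 (-0.55, SE 0.04) and Rpl5 (-0.54, SE 0.04) fell in control cells, while the translation helicase Eif4a2 (0.57, SE 0.04) and the chaperone Hspa8 (0.24, SE 0.03) rose. Without Trim71, 14 were higher and 3 lower with Cas9, and 22 higher and 3 lower (6 lower in DESeq2) with Tnrc6a (medians 0.06 and 0.11), among them the mitochondrial chaperone Hspa9 (0.28, SE 0.03, with Cas9) and Rps12 (0.35, SE 0.04, with Cas9). The count of 14 was 11 in DESeq2 and 19 with factors set by genes outside chromosome 8. The count of 22 was 17 in DESeq2.

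Ribosomal protein genes that host no snoRNA here are, as background, the best known TOP genes, and their reading frames encode full proteins. All 55 tested fell with Tnrc6a in both genotypes, with a median of -0.52 each, against medians of -0.37 and -0.31 for the 7 hosts. Rps26 (-0.71, SE 0.04) and Rpl31 (-0.72, SE 0.04) fell most clearly in control cells. Without Trim71, 19 were higher and 1 lower in each background (medians 0.07 and 0.08), among them Rpl13, which lies on chromosome 8. Under Tnrc6a that count of 19 was 12 with relative log expression factors and 10 in DESeq2. SnoRNP proteins and assembly factors, which package snoRNAs, fell with Tnrc6a too, with 16 of 19 lower and 1 higher in either genotype. The pseudouridine synthase Dkc1 (-0.81, SE 0.04) and Nop10 (-0.73, SE 0.05) fell in control cells, and Nufip1 rose (0.11, SE 0.04). Without Trim71, 7 of the 19 were higher and 1 lower with Cas9, and 6 higher and 2 lower with Tnrc6a.

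Decay factors and other known decay substrates did not move one way. Of 21 nonsense-mediated decay factors, 3 were higher and 3 lower without Trim71 with Cas9, and 3 higher and 4 lower with Tnrc6a (medians 0.00 and 0.02). With factors set by genes outside chromosome 8, 5 were higher with Cas9. Upf1, the helicase of the pathway, was higher by 0.48 and 0.52 (SE 0.04 each), and Upf3a, which binds exon junctions, by 0.68 and 0.76 (SE 0.05 each). Both lie on chromosome 8, whose 1027 tested genes had medians of 0.47 and 0.48 in these comparisons, and their part in the rise of the hosts was not tested. With Tnrc6a, 3 were higher and 10 lower in control and 5 higher and 8 lower in Trim71-/- cells. Casc3 (0.41, SE 0.04) and Upf2 (0.19, SE 0.05) rose in control cells, and the termination factor Gspt1 (-0.41, SE 0.04) and Pnrc2 (-0.41, SE 0.05) fell.

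Of 25 other transcripts reported as decay substrates, 7 were higher and 8 lower (5 lower with factors set outside chromosome 8) without Trim71 with Cas9, and 7 higher and 5 lower with Tnrc6a. The stress factors Atf4 (-0.55, SE 0.04, with Cas9) and Gadd45a (-0.70, SE 0.08) fell, while Atf5 (0.31, SE 0.05) and the splicing factor Srsf7 (0.21, SE 0.04) rose. With Tnrc6a, 12 were higher and 10 lower in control and 13 higher and 9 lower in Trim71-/- cells. Cdkn1a (1.47, SE 0.05), Atf3 (1.85, SE 0.09) and Ddit3 (1.73, SE 0.09) rose in control cells, and the splicing factors Srsf7 (-0.55, SE 0.04) and Srsf2 (-0.46, SE 0.03) fell. Gene-level counts pool the decay-sensitive isoform of a splicing factor with its coding isoform, so they do not read the substrate alone. Upf1, itself reported as a substrate, is in this list and among the decay factors.

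Genes of the mTOR pathway and other regulators of TOP mRNAs were counted because translation of TOP transcripts exposes the hosts to decay. Of 17 tested, 3 were higher and 7 lower without Trim71 with Cas9, and 1 higher and 10 lower with Tnrc6a. The mTOR inhibitors Sesn2 (-0.71, SE 0.04) and Ddit4 (-0.47, SE 0.07) fell with Cas9. With Tnrc6a, 4 were higher and 11 lower in either genotype, and here Ddit4 (2.18, SE 0.06) and Sesn2 (0.51, SE 0.04) rose in control cells. Eif4ebp2, a repressor of cap-dependent translation (-0.63, SE 0.04), and the TOP mRNA-binding protein gene Cnbp (-0.47, SE 0.04) fell.

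**Figure D4:**
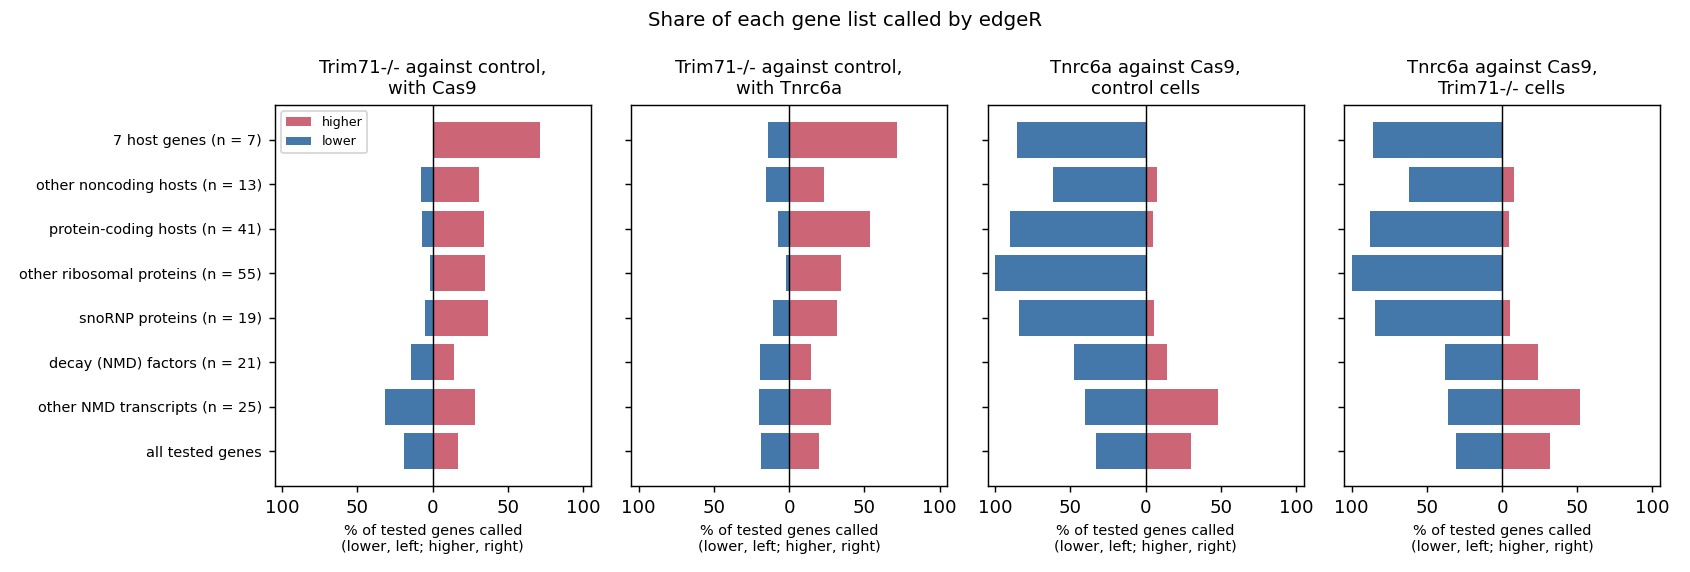
Share of tested genes called higher (right) and lower (left) by edgeR in each gene list and among all tested genes, with 1 panel per comparison and the number of tested genes beside each list. The host lists, ribosomal protein genes and snoRNP proteins lie mostly to the left in both Tnrc6a panels, where 55 of 55 ribosomal protein genes are lower, while decay factors and other decay transcripts lie on both sides.

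Over the 12 libraries, the gene whose level followed Gas5 most closely was another noncoding snoRNA host, Zfas1 (Pearson r = 0.991 on log2 CPM, among 10850 genes with a mean of at least 5 CPM). Snhg8 was followed most closely by Fh1, the mitochondrial fumarase (r = 0.995), Snhg5 by Ewsr1 (0.996), Snhg3 by Get1 (0.992), Snhg6 by Arv1 (0.972), Snhg1 by Tspan3 (0.960) and Snhg12 by the pseudogene Rpl30-ps8 (0.981). Within the 7 genes, r was 0.971 for Gas5 and Snhg6, 0.931 for Snhg8 and Snhg1, 0.917 for Snhg3 and Snhg12 and 0.203 for Snhg3 and Snhg8. Genes outside the members were often closer. Placed among the 10850 genes, Snhg6 would rank 27 for Gas5, Snhg1 194 for Snhg8 and Snhg12 924 for Snhg3. In the other direction the ranks were 3, 11 and 112. The 12 libraries fall into 4 groups of 3, so these values describe likeness of group patterns and carry no test.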

How the data were processed

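Total RNA of 12 wells was sequenced as stranded TruSeq libraries. Per the submitters' processing notes, bcl2fastq 2.20 and STAR 2.7.3a were used, and the builds named are GRCm38 and mm10. The tests used the raw, unnormalized counts of each gene as the authors deposited them. RPKM values, scaled by length and library size per the file headers, were deposited beside them and served only to compare levels between genes. Which counter, annotation and strand setting made the counts could not be read from the labels or headers. The lowest listed gene had 46 counts over all libraries.

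The fit used edgeR 4.0.16 under R 4.3.3 (filterByExpr by group, 20486 genes kept; factors by trimmed mean of M values; robust glmQLFit over 12 libraries), with two-sided tests and Benjamini-Hochberg adjustment over all tested genes (threshold 0.05). Ratios were compared by exact permutation tests (scipy). Positions, transcripts and snoRNAs come from GENCODE M21 (GRCm38), and promoters from RefSeq (GRCm38.p6). Replicate numbers in the titles showed no shared deviation between groups (correlations from -0.232 to 0.145), so they were not used as pairs. Alternatives were other size factors (also without chromosome 8 genes), other low-count filters, limma-voom (limma 3.58.1), DESeq2 1.42.0, limma on log2(RPKM + 0.1), a replicate block, fits on the compared groups only, and leaving out each library. Scaling alternatives for the gene lists, other tools for the snoRNAs and the M21 length of Snhg5 were added after the data were seen. The procedure was also tested on simulated data. Named genes were the 7 members, up to 3 genes per list, direction and comparison with the smallest adjusted p, Upf1, the nearest coding starts and the genes most alike. Members and lists were chosen with earlier results of these data known. Some genes that this rule names are not reported here.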

Additional observations from a re-analysis of the deposited data

How the results depend on the processing

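Of 616 results of single members under alternatives in the 4 pairwise comparisons, 597 kept direction and side of the threshold. Of the other 19, 15 were the loss of the Snhg8 fall with Tnrc6a in control cells, and the cause was not tested. That fall lost its call with relative log expression factors (adjusted p = 0.136), upper-quartile factors (0.101), at least 1 CPM in 6 libraries (0.113), DESeq2 (0.17), factors without chromosome 8 (0.0525), the compared groups only (0.0903) and 8 of 12 single libraries left out. With the replicate block it was lost as well (edgeR adjusted p = 0.0545), and the block changed no other member's call. Leaving out single libraries, Snhg12 in Trim71-/- against control with Cas9 ranged from -0.0376 to 0.171 and the Snhg1 interaction from -0.0168 to 0.0755. The latter was negative without Cas9 control replicate 1 (-0.00183), Cas9 Trim71-/- replicate 2 (-0.00663), Tnrc6a control replicate 1 (-0.00716) or 3 (-0.00532), or Tnrc6a Trim71-/- replicate 2 (-0.0168). Over these 12 fits, members called higher without Trim71 with Cas9 numbered 5 to 6, members lower with Tnrc6a in control cells 5 to 7, and members lower in the interaction 0 to 1. Over all genes, the interaction called 1419 (958 higher, 461 lower), 812 by limma on log2(RPKM + 0.1), and 768 higher and 613 lower with relative log expression factors. The split was also nearly even without Tnrc6a control replicate 1 (548 higher, 511 lower), Tnrc6a control replicate 2 (543, 519) or Tnrc6a Trim71-/- replicate 2 (584, 521). What depth limits for the snoRNAs was not tested.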
